A study of Mus musculus with 17 samples.

Results

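Loss of Endoglin in the endothelium of mouse bone marrow was examined 4 weeks after tamoxifen by comparing every sample whose time label is 4 weeks, 4 knockout (KO) and 5 wild-type (WT), across all genes. These are 9 of the 17 samples of the series, the other 8 having been collected at 2 weeks. The KO mice combined CreERT2, a Cre recombinase that tamoxifen activates, under the promoter of the endothelial gene Cdh5, with an Eng allele in which loxP sites flank exons 5 and 6. All animals of both genotypes are labelled as injected with tamoxifen, which was given at 8 weeks of age, and whether Cre was present in the WT animals is not in the labels. WT samples came from 2 females (f and f3, the former without a number in the labels) and 3 males (m1, m2 and m3), and KO samples from 1 female (f2) and 3 males (m1, m2 and m3). Per the protocol, marrow cells released by crushing long bones were freed of red cells in ACK buffer and sorted as CD45- Ter119- CD31+ Sca1+. The series' design text gives that gate without Sca1. SmartSeq2, which amplifies polyadenylated RNA along its full length without molecular identifiers, was used to make the libraries. Values are raw counts per gene, given as CPM, the count scaled by the library total.

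Endoglin, the product of Eng, is a co-receptor of endothelial cells that binds BMP9 and BMP10 together with the kinase receptor ALK1 and feeds into SMAD1 and SMAD5 signalling. Inherited loss of a functional copy of the gene in people causes hereditary haemorrhagic telangiectasia, in which vessels widen and arteries join veins directly. In bone marrow the endothelium lines arterioles and the wide, leaky sinusoids, and it supplies factors that blood stem cells depend on.

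The part of Eng that the floxed allele removes is shown because it decides what the counts of the gene can report. Both exons lie in the coding region of transcript Eng-201 on the plus strand of chromosome 2 (GENCODE M21, GRCm38), at chr2:32672218-32672383 and chr2:32672837-32672957. The line for exon 7 shows its start, with the capitals marking the stop codon that is read when exon 4 is joined to exon 7.
Eng exon 5: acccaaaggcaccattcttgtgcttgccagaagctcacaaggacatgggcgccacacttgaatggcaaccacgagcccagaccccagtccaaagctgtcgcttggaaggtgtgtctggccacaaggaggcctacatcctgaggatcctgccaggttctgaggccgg
Eng exon 6: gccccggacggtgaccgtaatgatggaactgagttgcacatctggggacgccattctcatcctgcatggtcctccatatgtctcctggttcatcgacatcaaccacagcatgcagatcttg
Eng exon 7 start: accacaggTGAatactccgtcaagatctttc
The exons are 166 and 121 bases long, 287 bases of the 3422 bases of the transcript (8.39%). Since 287 leaves a remainder of 2 on division by 3, the reading frame shifts, and the joined sequence meets the stop after 179 codons, where the intact transcript has 653. The other 13 exons stay in the gene, so the counts, which are summed over the gene, also hold reads from any transcript that lacks exons 5 and 6, and they do not measure the deletion itself.

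Eng fell in every KO sample, by amounts that differed widely between animals. In WT it was at 2594 (f), 2633 (f3), 2399.8 (m1), 2735 (m2) and 2574 CPM (m3). In KO it was at 873 (f2), 322 (m1), 1647 (m2) and 274 CPM (m3). The groups did not overlap, and the KO samples spanned 10.6% (m3) to 63.7% (m2) of the WT mean. The WT mean was 2587 ± 122 CPM and the KO mean 779 ± 639.6 CPM (SD, n = 5 and 4), and a two-sided exact permutation test on mean log2 CPM gave p = 0.00794, the smallest value that groups of 5 and 4 allow. In the edgeR quasi-likelihood fit the log2 fold change was -1.72 (SE 0.501, unadjusted p = 0.00786, Benjamini-Hochberg adjusted p = 1 over 15209 genes), and without KO m2 it was -2.49. An exon of Eng overlaps Fpgs in the annotation, and how the counting treated shared reads is not given in the sources used here. In sorted bulk RNA, fewer cells of a type and less RNA per cell cannot be told apart.

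**Figure D1:**
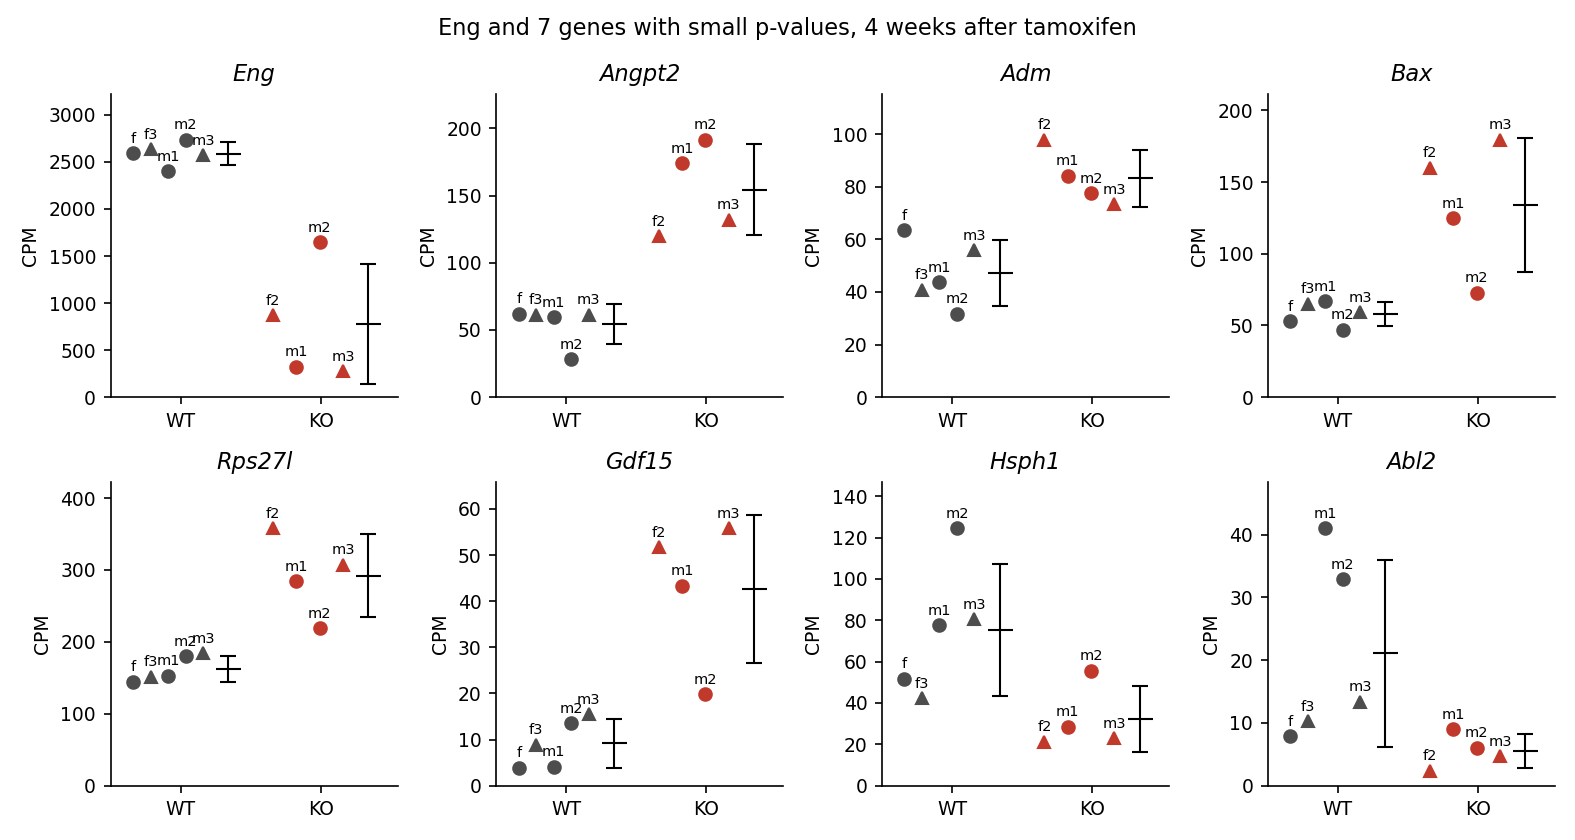
Levels of Eng and 7 genes with small p-values in each 4-week sample (CPM, linear axes from 0). Grey marks WT and red KO samples, triangles the samples on the positive side of the first principal component and circles those on the negative side, and black bars the mean ± SD; Eng spans 274 to 1647 CPM in KO against 2399.8 to 2735 CPM in WT, and KO m2 lies nearest to WT for Bax, Rps27l and Gdf15.

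The sorted cells had the markers of endothelium in both genotypes. Pecam1, which encodes CD31, had means of 2844 ± 202 CPM (SD) over the 5 WT samples and 2668 ± 292 CPM over the 4 KO samples. Cdh5, the VE-cadherin gene whose promoter drives the Cre, was at 676 ± 61.4 CPM in WT and 650.2 ± 60.4 CPM in KO (SD, n = 5 and 4), and its 95% interval for the log2 fold change was -0.27 to 0.26. For Ly6a, the gene of Sca1, the means were 2393 ± 413 CPM in WT and 2491 ± 479 CPM in KO (SD, n = 5 and 4). CD31 and Sca1 belong to the gate of the protocol, so the levels of Pecam1 and Ly6a were in part set by the sort. Total counts ran from 20477400 to 33726630 per sample.

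The largest difference between the 9 samples did not follow genotype. The first principal component of log2 CPM held 32.1% of the variance and put WT f3, WT m3, KO f2 and KO m3 on its positive side, and the other 5 samples on its negative side. Kdr, the main VEGF receptor of endothelium, was at 416 to 626 CPM in the positive and 1646 to 2179 CPM in the negative samples. Tek, the angiopoietin receptor Tie2, was at 109.6 to 272 against 539 to 734 CPM, and Rgs5, a pericyte gene, at 284 to 459 against 1028 to 2336 CPM. Cdh5 and Pecam1 overlapped between the sides. Of 9213 genes with a mean log2 CPM above 3, 990 were lower in every positive than in every negative sample, with a median exon length of 6691 bases, and 448 were higher, with a median of 2656 bases, against 4383 bases over all. Across 9209 of these genes a gene's correlation with the component had a Spearman's rho of -0.379 with its exon length, a description over genes of the same libraries. The labels name no batch that matches the sides, each of which holds both genotypes. The replicate numbers did follow the sides, with males m1 and m2 negative and m3 positive in both genotypes. Among females, f was on the negative side and f2 and f3 on the positive. Whether the numbers mark a batch was not tested. For Eng the log2 fold change was -2.42 within the positive and -1.39 within the negative side.

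**Figure D2:**
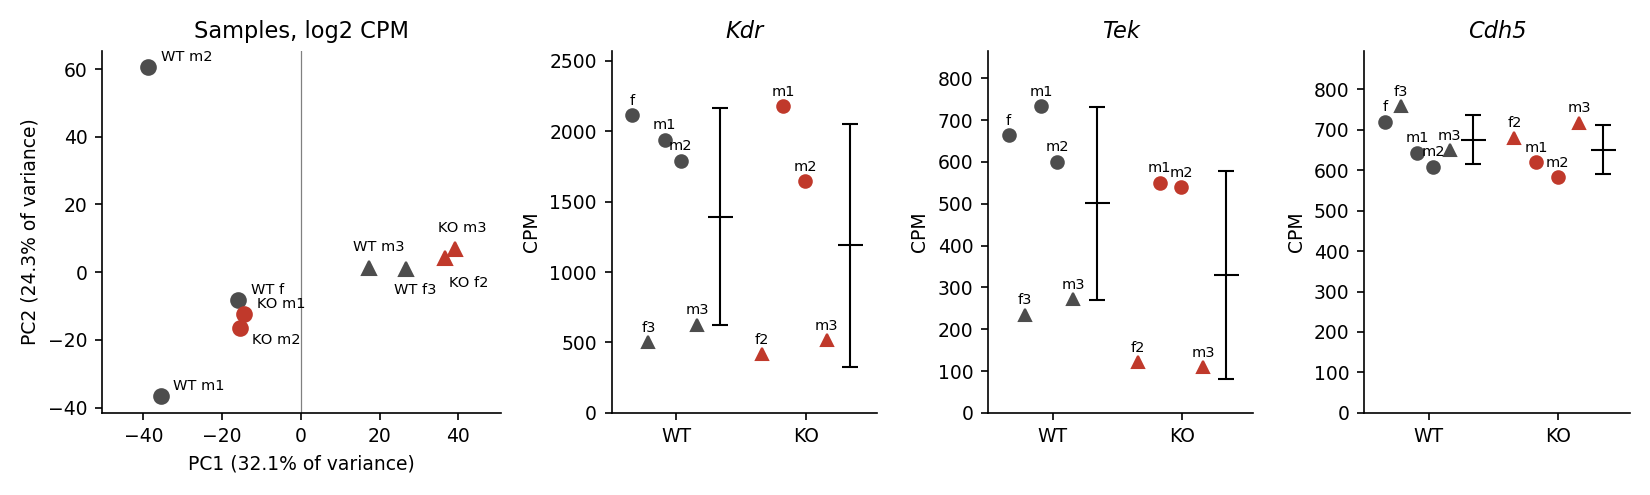
Positions of the 9 samples on the first and second principal components of log2 CPM (left), and levels of Kdr, Tek and Cdh5 in CPM (right; black bars, mean ± SD). Triangles are samples on the positive side of the first component and circles those on the negative side; for Kdr and Tek the sides are apart in both genotypes, while Cdh5 overlaps.

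Across all genes, no gene passed the adjusted threshold of 0.05 in the edgeR fit, which had sex as a term. The share called was 0% higher and 0% lower in KO. Of the genes tested 51.3% had a positive log2 fold change. At an unadjusted p under 0.05 there were 198 higher genes (1.3%) and 224 lower genes (1.47%). Together these were a smaller share than the 0.05 that chance alone would give. Separate CPM ranges in the genotypes were found for 101 genes with the higher level in KO (0.664%) and 80 with the lower (0.526%). By chance, 1 of the 126 assignments of samples to groups (0.00794) separates them in a given direction, more than either share. A gene picked from all genes is thus not set apart from chance by separate ranges or an unadjusted p under 0.05 alone. DESeq2 put 11 higher and 6 lower genes past an adjusted p of 0.05, and limma voom with quality weights 0 and 0. All edgeR adjusted p-values of the genes named below were 1 after rounding, so each is described by its levels and its unadjusted p. The fit could place a 95% interval inside a log2 fold change of -1 to 1 for 5327 of 15209 genes (35%), and for 3196 of the 3802 genes with the highest counts (84.1%), so a log2 fold change of 1 could not be bounded for the other genes at this depth and spread.

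Leading genes are the 12 of smallest p-value in each direction among protein-coding genes with a mean count of at least 50 over the 9 samples. Of these the smallest p-value was that of Angpt2, the antagonist ligand of the Tie2 receptor that endothelial cells store and release when vessels are destabilised. It was at 62.0 (f), 61.4 (f3), 59.5 (m1), 28.5 (m2) and 61.4 CPM (m3) in WT. In KO it was at 119.7 (f2), 174 (m1), 192 (m2) and 132 CPM (m3). Every KO sample was above every WT sample, with WT m2 far below the other WT samples. The KO mean was 2.83 times the WT mean (154 ± 34 CPM, n = 4, against 54.6 ± 14.6 CPM, n = 5, SD), and the log2 fold change was 1.52 (SE 0.273, unadjusted p = 0.000398, edgeR adjusted p = 1). It was 1.03 within the positive side and 1.87 within the negative side, and DESeq2 gave an adjusted p of 0.000908. The KO sample with the most Eng left, m2, had the highest Angpt2.

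Of the receptor genes of this axis only Tie1 had an unadjusted p under 0.05. Tie1, the orphan partner of Tie2, was at 930.4 to 1382 CPM in WT and 641 to 1158 CPM in KO, with a log2 fold change of -0.52 (SE 0.188, unadjusted p = 0.0218). Tek had -0.81 (SE 0.576, unadjusted p = 0.194), and with the side as a term -0.68 and an unadjusted edgeR p of 0.00612. The side was drawn from these same expression values after they were seen, and Tek itself lies apart between the sides. The smaller p-value is thus not independent evidence. Ptprb, the phosphatase that dampens Tie2, had -0.23 with ranges that overlapped (unadjusted p = 0.422). Of the 7 genes of the axis 5 were tested, since Angpt1 and Angpt4 had too few counts, and 1 was higher and 1 lower at an unadjusted p under 0.05. Their median was -0.23, but 0.20 within the negative side and -0.01 without KO f2.

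Of 10 genes typical of tip cells, the leading cells of vessel sprouts, 8 were higher in KO, 2 of them at an unadjusted p under 0.05. Over all genes tested 51.3% were higher, and 1.3% were so at that p. The median log2 fold change of the list was 0.27 against 0.01 over all genes tested. Adm, which encodes the vasodilator adrenomedullin, was at 31.7 to 63.4 CPM in WT and 73.3 to 97.9 CPM in KO without overlap (log2 fold change 0.88, SE 0.199, unadjusted p = 0.0018). Apln, encoding the vascular peptide apelin, was at 42.9 to 113 CPM in WT and 102 to 206 CPM in KO (log2 fold change 1.13, SE 0.324, unadjusted p = 0.00712). Here KO m1, at 102 CPM, lay inside the WT range. Within the positive side the median of the list was -0.11, with 4 of 10 genes higher.

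Among VEGF ligands and receptors 9 of 10 genes were tested, 3 higher and 6 lower. Pgf, a ligand of VEGFR1, was at 7.20 to 13.3 CPM in WT and at 34.8 (f2), 7.24 (m1), 34.1 (m2) and 15.2 CPM (m3) in KO, with a log2 fold change of 1.23 (SE 0.446, unadjusted p = 0.0228). KO f2, m2 and m3 stood above all WT samples and KO m1 was level with the lowest. Nrp1, a co-receptor for VEGF and semaphorins, was lower (log2 fold change -0.44, SE 0.165, unadjusted p = 0.0255). Kdr had -0.43 (SE 0.614), with levels that followed the sides of the first component.

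Among the 22 lists that are not markers of other cells, the median furthest from 0 was that of the p53 target genes, which act in cell cycle arrest, apoptosis and DNA repair. Of its 23 genes, all tested, 21 were higher in KO, and 8 of the 23 were so at an unadjusted p under 0.05 with none lower, where 1.3% of all genes were. For 5 of the 23 (Bax, Rps27l, Ephx1, Sesn1 and Sesn2) the groups did not overlap, as for 0.664% of all genes. The median log2 fold change was 0.69, against 0.01 over all genes tested, and the summed level was 2129 to 2870 CPM in WT and 3372 to 3974 CPM in KO. The list was chosen with earlier results of these samples known, so its direction is not independent evidence. With the side of the first component as a term 21 of the 23 were higher, with a median of 0.76. Within the positive and negative sides the medians were 0.61 and 0.68.

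Bax, the pore-forming protein of mitochondrial apoptosis, was at 53.2 (f), 65.3 (f3), 66.9 (m1), 47.0 (m2) and 59.2 CPM (m3) in WT. In KO it was at 160.1 (f2), 125 (m1), 72.9 (m2) and 179 CPM (m3). KO m2 lay just above the WT samples and the other KO samples well above. The log2 fold change was 1.24 (SE 0.272, unadjusted p = 0.00147, DESeq2 adjusted p = 0.0232), and 1.44 and 0.83 within the positive and negative sides. An exon of Bax overlaps the predicted gene Gm45808.

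Rps27l, a ribosomal protein-like gene that p53 induces, was at 144 to 184 CPM in WT. In KO it was at 358 (f2), 285 (m1), 219 (m2) and 308 CPM (m3), with a log2 fold change of 0.87 (SE 0.172, unadjusted p = 0.000757, DESeq2 adjusted p = 0.0212). Again all KO samples were above all WT samples, and KO m2 was the lowest of them. Ephx1, the microsomal epoxide hydrolase, was at 195 to 327 CPM in WT and 348 to 547 CPM in KO (log2 fold change 0.90, SE 0.221, unadjusted p = 0.00299). Sesn2, a stress-induced inhibitor of growth signalling, was at 7.23 to 17.9 CPM in WT and 20.4 to 43.7 CPM in KO (1.40, SE 0.364, unadjusted p = 0.00426).

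Cdkn1a, Sesn1, Phlda3, Eda2r and Mdm2 are described here after their values were seen. Cdkn1a, which encodes the cell cycle inhibitor p21, was at 441 to 907 CPM in WT and at 1289 (f2), 1042 (m1), 817 (m2) and 1257 CPM (m3) in KO. Only KO m2 lay inside the WT range. Sesn1 was at 15.9 to 34.4 CPM in WT and 35.6 to 39.6 CPM in KO. Phlda3, an inhibitor of AKT, was at 7.52 to 34.5 CPM in WT and 19.8 (m2) to 154 CPM (f2) in KO, with a log2 fold change of 1.92 (SE 0.553, unadjusted p = 0.00739). Eda2r, a receptor of the TNF family, was at 3.88 to 17.1 CPM in WT and 12.2 to 50.1 CPM in KO. Mdm2, the ubiquitin ligase that restrains p53, was at 39.3 to 84.1 CPM in WT and 77.7 to 116 CPM in KO (0.45, SE 0.245, unadjusted p = 0.0981). The apoptosis gene Bbc3 (Puma) and the death receptor gene Tnfrsf10b were the members that lay lower, with log2 fold changes of -0.22 and -0.40 and unadjusted p-values of 0.603 and 0.404.

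Gdf15, a stress cytokine that p53 can induce and that was not in the list, followed the same order. It was at 3.88 (f), 8.86 (f3), 4.11 (m1), 13.5 (m2) and 15.6 CPM (m3) in WT and at 51.7 (f2), 43.4 (m1), 19.9 (m2) and 55.8 CPM (m3) in KO. The groups did not overlap, and the log2 fold change was 2.24 (SE 0.521, unadjusted p = 0.00215, DESeq2 adjusted p = 0.0212). For Bax, Rps27l, Ephx1, Sesn2 and Gdf15 the lowest KO value was in m2, the sample with the most Eng left. Over the 12 leading higher genes m2 was the KO sample nearest to WT for 5, m1 for 4, m3 for 2 and f2 for 1, and over the 12 leading lower genes m1 was nearest for 7 and m2 for 2. Without KO m2 the median of the p53 list was 0.96, with 7 genes higher at an unadjusted p under 0.05. With 4 KO samples a relation between the Eng level and these genes was not tested.

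**Figure D3:**
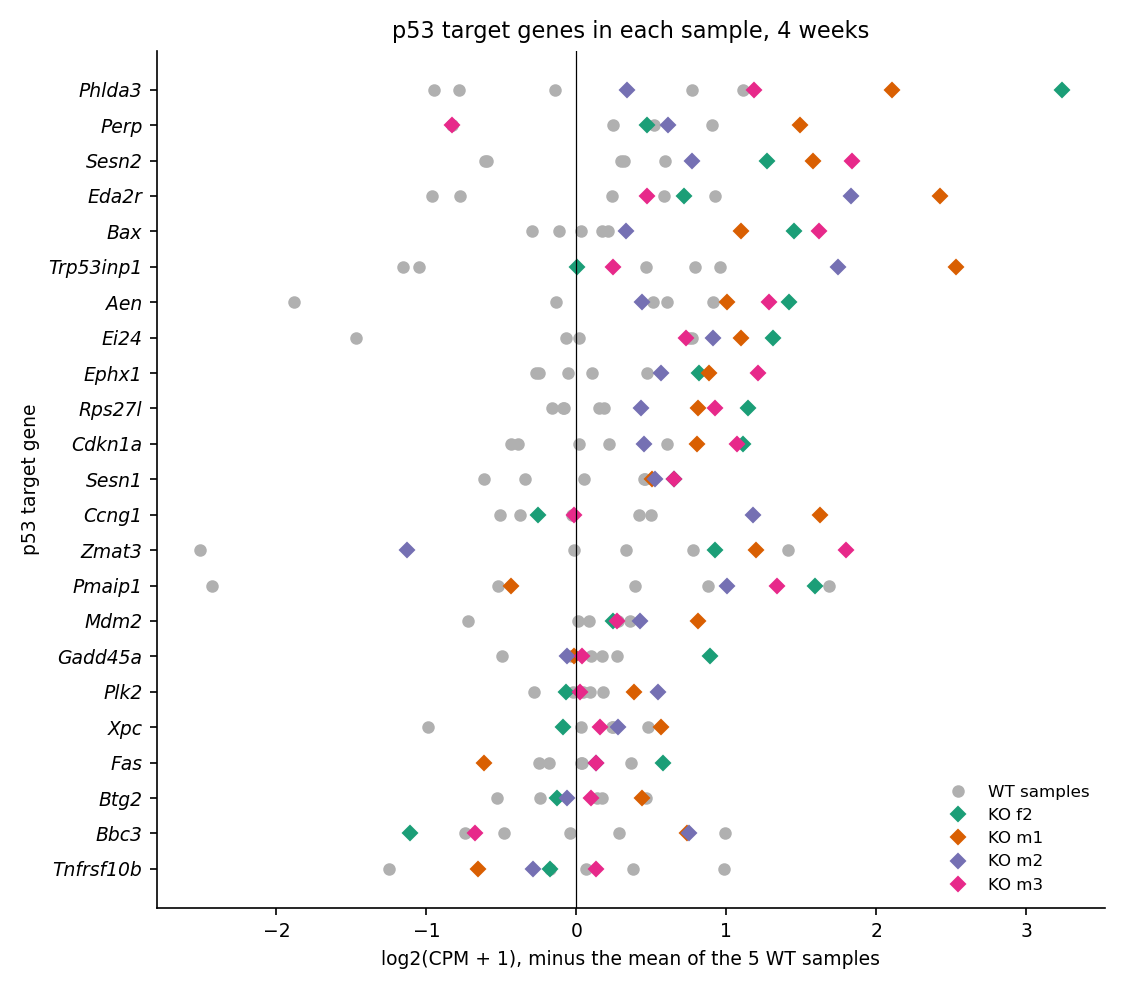
Each p53 target gene (rows, ordered by log2 fold change) in each 4-week sample, as log2(CPM + 1) minus the mean of the 5 WT samples. Grey points are WT and coloured diamonds the 4 KO samples; for Bax, Rps27l, Ephx1 and Sesn2 all diamonds lie to the right of the WT points, with KO m2 the nearest to them.

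Promoter sequences are shown for members that lay higher together. RefSeq promoter windows of 300 bases (250 before to 50 after each start, GRCm38.p6) were found for 17 of the 23 genes, and each was searched on both strands for the p53 half-site, whose consensus is its own reverse complement. It occurred in 9 of the 17 genes, and in 2582 of 27025 genes (9.55%) over all windows. The genes were listed as p53 targets beforehand, so a larger share among them says nothing about these samples. A match is a description of the letters and no evidence of binding. Stretches upstream of the start are given with the half-site in capitals, on the strand of the gene.
Bax, chr7:45467055-45467134, minus strand: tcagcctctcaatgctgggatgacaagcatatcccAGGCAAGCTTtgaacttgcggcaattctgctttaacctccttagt
Rps27l, chr9:66946271-66946350, plus strand: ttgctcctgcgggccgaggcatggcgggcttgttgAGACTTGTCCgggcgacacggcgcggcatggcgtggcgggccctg
Sesn1, chr10:41887231-41887310, plus strand: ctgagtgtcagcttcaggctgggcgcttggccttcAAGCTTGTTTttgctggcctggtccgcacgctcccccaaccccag
Cdkn1a, chr17:29090893-29090972, plus strand: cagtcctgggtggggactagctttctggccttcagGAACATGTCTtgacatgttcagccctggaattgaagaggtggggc
The Cdkn1a stretch holds another match in lower case, 73 bases before the start. Rps27l has another match outside its stretch, 210 bases before the start. The half-site in capitals begins 107 bases before the annotated start of Rps27l, 173 before that of Sesn1 and 51 before that of Cdkn1a. Matches were also found for Gadd45a, Aen, Ei24, Mdm2 and Ccng1, whose log2 fold changes were 0.32, 0.95, 0.94, 0.45 and 0.68.

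Genes for the cytosolic ribosome lay slightly higher. Of 76 ribosomal protein genes 75 were higher in KO, 7 at an unadjusted p under 0.05 (1.3% of all genes were), with a median log2 fold change of 0.21. The count of 7 was 1 without KO f2, 2 without KO m2 or WT m2, 3 without WT f, 13 without KO m3 and 15 without KO m1, while 73 to 76 genes were higher in each. Their summed level was 35916 to 43850 CPM in WT and 43542 to 50513 CPM in KO. Rps19, whose loss causes Diamond-Blackfan anaemia, was at 962 to 1196 CPM in WT and 1341 to 1544 CPM in KO without overlap (log2 fold change 0.45, SE 0.102, unadjusted p = 0.00158). It has many processed pseudogenes, so its counts are uncertain. Rps18 had 0.37 (SE 0.122, unadjusted p = 0.014) and Rpl7a 0.36 (SE 0.139, unadjusted p = 0.0298). The number higher was 74 with DESeq2 size factors and 76 with upper quartile scaling, which moved the median of all genes to 0.05. With the side of the first component as a term 74 of the 76 were higher, with a median of 0.20.

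The glycolysis and hypoxia list had 18 of 20 tested genes higher, where 51.3% of all genes were, with a median of 0.22. At an unadjusted p under 0.05 it had 2 higher genes, where 1.3% of all genes were. That count was 0 without KO f2, WT f or WT m2 and 4 without KO m1 or WT m3. Bnip3, a mitophagy receptor, was at 72.0 to 134 CPM in WT and at 158 (f2), 124 (m1), 309.8 (m2) and 124 CPM (m3) in KO, and without KO m2 its log2 fold change went from 0.72 to 0.38. Ankrd37, a hypoxia-induced gene, had 1.09 (SE 0.447, unadjusted p = 0.0382), which was 0.07 within the positive side and 1.86 within the negative side. The glycolytic enzyme genes Tpi1 and Aldoa had 0.37 (SE 0.164) and 0.33 (SE 0.15), with unadjusted p-values of 0.0512 and 0.0541. The 13 protein genes of the mitochondrial genome were all higher, with a median of 0.11 and none at an unadjusted p under 0.05.

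The other leading genes that were higher in KO belong to no common pathway. Commd3, a subunit of an endosomal sorting complex, was at 67.5 to 92.4 CPM in WT and 106 to 157 CPM in KO. Dglucy, a mitochondrial D-glutamate cyclase, was at 4.66 to 13.4 CPM in WT and 23 to 26.7 CPM in KO. Zfp277, a zinc finger protein, was at 19.2 to 45.4 CPM in WT and 43.0 to 65.8 CPM in KO, where KO m1 lay inside the WT range. Cox6b2, the testis form of a cytochrome oxidase subunit, was at 0 CPM in WT m1, m2 and m3, at 0.0371 CPM in f3 and 0.919 CPM in f, and at 2.20 to 6.86 CPM in KO. The fitted log2 fold changes of Commd3, Dglucy and Zfp277 were 0.74, 1.32 and 0.99, and that of Cox6b2 depends on near-zero WT counts and is not given.

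Among the leading genes that lay lower in KO the smallest p-value was that of Abl2, a tyrosine kinase that links integrins to the cytoskeleton. It was at 7.86 (f), 10.3 (f3), 41.0 (m1), 32.9 (m2) and 13.4 CPM (m3) in WT and at 2.39 (f2), 8.99 (m1), 6.05 (m2) and 4.74 CPM (m3) in KO. KO m1 lay inside the WT range, and WT m1 and m2 were far above the other WT samples. The log2 fold change was -2.06 (SE 0.397, unadjusted p = 0.000647, DESeq2 adjusted p = 0.00352).

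Hsph1, the HSP110 chaperone, was at 51.7 (f), 42.4 (f3), 77.5 (m1), 124 (m2) and 80.6 CPM (m3) in WT. It was at 21.3 (f2), 28.6 (m1), 55.7 (m2) and 23.1 CPM (m3) in KO, where only m2 lay inside the WT range. The log2 fold change was -1.30 (SE 0.279, unadjusted p = 0.00128), and -1.57 without KO m2. Of 21 heat shock proteins and co-chaperones 16 lay lower in KO, with a median of -0.18. Hsph1 alone had an unadjusted p under 0.05, where 1.47% of all genes were lower. Hspa1a, the inducible HSP70, was at 351 to 735 CPM in WT and 205 to 512 CPM in KO, and Dnaja1, an HSP40 partner of HSP70, at 381 to 536 and 340.1 to 382 CPM. Upper quartile scaling left 14 of the 21 lower, and without WT m3 the median was -0.07.

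Most of the remaining genes of this group had separate ranges in the genotypes, which their choice by small p-value in the same comparison favours. Foxj3, a forkhead transcription factor, was at 17.7 to 48.5 CPM in WT and 6.37 to 14.9 CPM in KO (log2 fold change -1.56, SE 0.341). Gbe1, the glycogen branching enzyme, was at 30.7 to 40.7 and 13.8 to 21.3 CPM (-0.91, SE 0.204). Tnk2, a tyrosine kinase that acts downstream of CDC42, was at 12.3 to 18.2 and 2.61 to 8.06 CPM (-1.47, SE 0.372). Katnbl1, Enpp3, Elf2 and Fbxo34 were lower without overlap, with log2 fold changes of -0.76, -0.64, -0.75 and -0.82. Megf9 and Ecm2 overlapped between the groups, at -1.64 and -0.59. Exons of Katnbl1, Tnk2, Elf2 and Fbxo34 overlap other annotated genes, so their counts are less certain.

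No other receptor of the TGF-beta and BMP family had an unadjusted p under 0.05. Acvrl1, which encodes the Endoglin partner ALK1, averaged 457 ± 37.2 CPM over the WT and 467 ± 89.9 CPM over the KO samples (SD, n = 5 and 4), with a 95% interval for its log2 fold change of -0.29 to 0.37. Tgfbr2 and Bmpr2 had -0.45 (SE 0.361) and -0.30 (SE 0.245). Of 12 genes 10 were tested, and Eng was the only member at an unadjusted p under 0.05. Bmpr1a and Bmpr1b had too few counts. Among 16 SMADs and SMAD target genes 6 were higher and 10 lower, with none at an unadjusted p under 0.05 in the main fit and a median of -0.05. With limma voom 1 was lower at an unadjusted p under 0.05, as was 1 with the replicate block in males. Id1, a direct target of SMAD1 and SMAD5, was at 1293 to 1587 CPM in WT and 1109 to 1352 CPM in KO (log2 fold change -0.22, SE 0.114, unadjusted p = 0.086, 95% interval -0.48 to 0.04). With the side of the first component as a term Id1 had -0.24 and an unadjusted edgeR p of 0.0304. That side was drawn from the same expression values after they were seen, so the smaller p-value is not independent evidence. Id3, a related target, had -0.06 (95% interval -0.33 to 0.20).

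Genes of vessel identity showed few differences. The endothelial identity list had 7 of 18 genes higher, with a median of -0.05 and Tie1 alone at an unadjusted p under 0.05. In the arterial list 7 of 15 were higher, with none at an unadjusted p under 0.05. In the sinusoidal and venous list 5 of 13 were higher, with a median of -0.20. Within the positive side 10 of 13 were higher (median 0.14), and within the negative side 2 of 12 (median -0.36). Nr2f2, the transcription factor COUP-TFII that sets venous identity, was at 13.9 to 26.4 CPM in WT and 26.6 to 54.0 CPM in KO without overlap (log2 fold change 0.93, SE 0.287, unadjusted p = 0.0107), and an exon of it overlaps an antisense transcript, B130024G19Rik. Ephb4, a receptor that marks veins, lay the other way at -0.43 (SE 0.169, unadjusted p = 0.0339). In the Notch list 5 of 14 were higher, and the ligand gene Dll1 was at 76.2 to 146 CPM in WT and 62.9 to 108 CPM in KO (-0.63, SE 0.187, unadjusted p = 0.0087).

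Most genes for cell junctions and basement membrane had negative log2 fold changes, nearly all too small to pass an unadjusted p of 0.05. Of 17 tested junction genes 14 were lower in KO, with a median of -0.20, and their summed level was 11677 to 12812 CPM in WT and 10396 to 11616 CPM in KO, without overlap. Jam2, a junctional adhesion molecule, was at 986 to 1415 CPM in WT and 742 to 1159 CPM in KO (log2 fold change -0.42, SE 0.143, unadjusted p = 0.0164). It was the only member at an unadjusted p under 0.05, where 1.47% of all genes were lower. The median of the junction list was -0.06 without KO f2 and -0.07 in males only. Jam3 and Ctnna1 had -0.31 and -0.34. Of 15 basement membrane genes 14 were lower, none at an unadjusted p under 0.05, with a median of -0.21 that ran from -0.41 without WT m3 to -0.13 without KO f2. Hspg2, which encodes perlecan, had -0.57 (SE 0.284) and Col18a1 -0.48 (SE 0.244). The exon lengths of the members of these lists were not examined. With the side of the first component as a term the medians of the junction and basement membrane lists were -0.15 and -0.17. Upper quartile scaling left 11 of 17 and 13 of 15 genes lower.

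**Figure D4:**
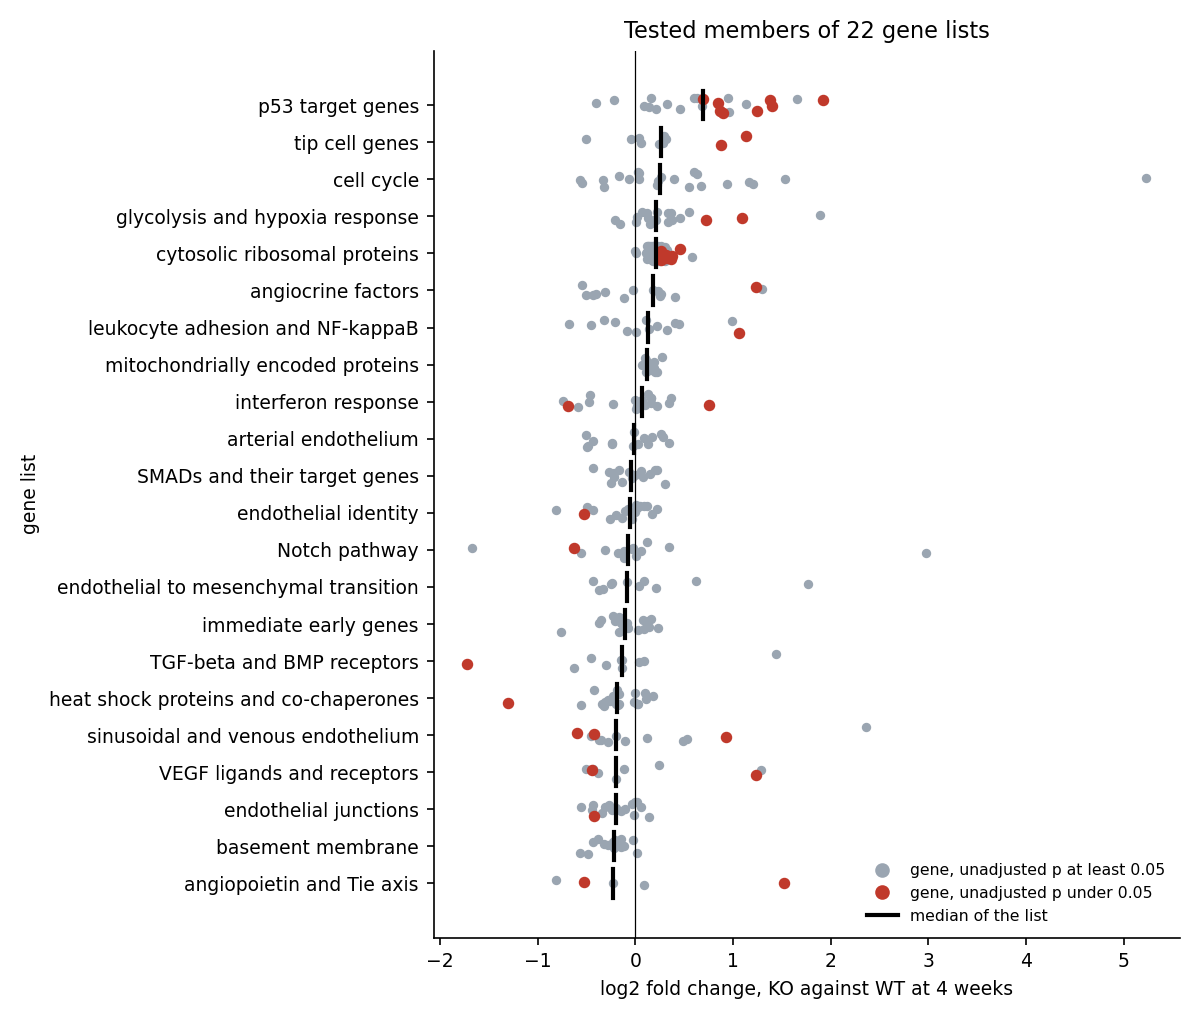
Log2 fold change (KO against WT at 4 weeks) of every tested member of 22 gene lists, ordered by the median of the list (black bars). Red points have an unadjusted p under 0.05; the p53 target genes have a median of 0.69, and the medians of the other 21 lists lie between -0.23 and 0.27.

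Inflammatory and stress lists were near the centre. Immediate early genes, which rise when tissue is dissociated, had 7 of 20 genes higher and a median of -0.11, with none at an unadjusted p under 0.05, but 16 of 20 higher and a median of 0.15 within the negative side. The leukocyte adhesion and NF-kappaB list had a median of 0.13, with the chemokine gene Cxcl10 at 11.4 to 32.3 CPM in WT and 16 to 67.2 CPM in KO (log2 fold change 1.06, SE 0.465, unadjusted p = 0.0498). The interferon list had a median of 0.07 (0.25 within the positive and -0.17 within the negative side), with Oas1a higher (0.76, unadjusted p = 0.0097) and Stat2 lower (-0.69, unadjusted p = 0.0187). The cell cycle list had 16 of 22 genes higher and a median of 0.25, with none at an unadjusted p under 0.05. Its direction turned with the samples used, from 0.97 with 20 of 23 higher within the positive side to -0.21 with 10 of 23 higher within the negative side. The median was -0.04 without KO m3 and -0.06 in males only. Within the positive side 5 of the 23 were higher at an unadjusted p under 0.05. That fit also called more of all genes higher at that p than the main fit. The list for endothelial to mesenchymal transition had 5 of 11 higher and a median of -0.09, which was 0.04 within the positive side. Angiocrine factors had 8 of 15 higher and a median of 0.18 (-0.11 within the positive side), with Pgf alone at an unadjusted p under 0.05, and Cxcl12, which retains blood stem cells, had -0.43 (SE 0.413).

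Transcripts of other marrow cells were compared because they can enter a sort. Erythroid genes were higher in KO for 8 of 8 tested members, 2 at an unadjusted p under 0.05, where 51.3% and 1.3% of all genes were. Their median was 1.56, and their summed level was 172 to 1291 CPM in WT and 621 to 2911 CPM in KO. Alas2, which makes haem in red cell precursors, was at 5.57 to 22.4 CPM in WT and at 56.4 (f2), 8.66 (m1), 117 (m2) and 40.1 CPM (m3) in KO. KO m1 lay within the WT range, and without KO m2 or KO f2 no erythroid gene had an unadjusted p under 0.05. Without WT m3 7 of 8 had, in the leave-one-out fit with the most genes higher at that p (410). The gate was negative for Ter119, and the part of red cell transcripts in the other results was not tested. KO m2, which had the highest Alas2, also had the highest Angpt2. It was the KO sample nearest to WT for 5 of the 12 leading higher genes, with Bax, Rps27l and Gdf15 among the genes where it was lowest. A relation between these values was not tested.

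Neutrophil markers summed to 20.8 to 100.2 CPM in WT and 37.3 to 75.5 CPM in KO. Macrophage markers summed to 38.3 to 103 and 48.7 to 81.3 CPM, B cell markers to 0 to 5.48 and 2.62 to 7.28 CPM, and general blood markers to 0.0642 to 7.51 and 4.30 to 10.4 CPM. Platelet markers summed to 11.5 to 39.0 and 17.4 to 41.6 CPM, and cartilage markers to 2.11 to 68.8 and 1.64 to 36.0 CPM. Ptprc, which encodes CD45, was at 0 to 2.57 CPM in WT and 0.112 to 0.910 CPM in KO. Marrow stroma markers lay lower, with 7 of 10 lower, a median of -0.58 (-0.24 without KO f2) and sums of 88.0 to 336 and 79.6 to 155 CPM. Col1a1 and Lepr had unadjusted p-values of 0.0277 and 0.040. Pericyte markers summed to 750.2 to 2992 CPM in WT and 817 to 2148 CPM in KO, and of these Cspg4, the NG2 proteoglycan, was at 2.04 to 15 CPM in WT and 0.0977 to 1.53 CPM in KO without overlap (log2 fold change -3.49, SE 0.942, unadjusted p = 0.00519), while Rgs5 had -0.51 (SE 0.761).

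A few low genes were at or near 0 in a single genotype. With at most 3 counts in every sample of a genotype and more in every sample of the other, 4 genes were at or under this floor in KO and 1 in WT. 1810010H24Rik had 0 counts in all 4 KO samples and 5 to 93 counts in WT, at least 9.28-fold lower in KO against a floor of 3 counts in the shallowest KO library. Cgref1, a secreted growth regulator, had 0 to 3 counts in WT and 13 to 103 counts in KO. Avpr2, Gm26280 and Gm9134 had at most 32 counts in any sample.

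The leading 4-week genes were then looked up in the samples of 2 weeks, 4 WT and 4 KO, which share no library with those of 4 weeks. Of the 12 leading higher genes 10 were tested at 2 weeks and 9 had the same direction, and of the 12 lower genes 8 were tested and 6 had it, against 54.1% of all 10340 genes tested at both times. Bax had a log2 fold change of 1.20 at 2 weeks (SE 0.327, unadjusted p = 0.00793), Rps27l 0.91 (SE 0.302, unadjusted p = 0.0199), Ephx1 0.83 (SE 0.227, unadjusted p = 0.00789) and Rps19 0.46 (SE 0.0881, unadjusted p = 0.0012). Each was close to its value at 4 weeks. The 2-week libraries differed from those of 4 weeks, with 10886 to 13583 genes detected per sample against 15996 to 21235. Mitochondrial genes held 22.2% to 29.5% of their counts, against 4.66% to 8.99% at 4 weeks. What this does to the comparison of the times was not tested. Several other leading genes were estimated far less well at 2 weeks. Angpt2 had 3.27 with an SE of 2.91, at means of 2.27 CPM in WT and 23.2 CPM in KO. Hsph1 had 6.26 with an SE of 5.64, in the other direction than its -1.30 at 4 weeks. Over all 10477 genes tested at 2 weeks 4916 were higher in KO, with a median of -0.06, and 122 were so at an unadjusted p under 0.05. The p53 list had a median of 0.58 at 2 weeks, with 11 of 18 genes higher. The ribosomal list had 0.26 with 75 of 76 higher, and the erythroid markers 2.18 with 5 of 6 higher. Neutrophil markers were higher in KO at 2 weeks for 8 of 8 tested genes, 4 of them at an unadjusted p under 0.05, with a median of 4.73, and their part in the 2-week values was not tested.

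A direct test of the difference between the KO effects at the times was made over 13515 genes. It gave 11 positive and 3 negative differences at an adjusted p under 0.05 (edgeR, Benjamini-Hochberg), 0 and 0 when each gene needed 10 counts in every sample. Among the genes named here with a value, the adjusted p was 1 for Eng, Angpt2, Bax, Rps27l, Ephx1 and Rps19 and under 0.05 for Dnajb4 and C1qb. The median biological coefficient of variation was 48.8% at 4 weeks and 119% at 2 weeks, which limits what this test can detect.

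**Figure D5:**
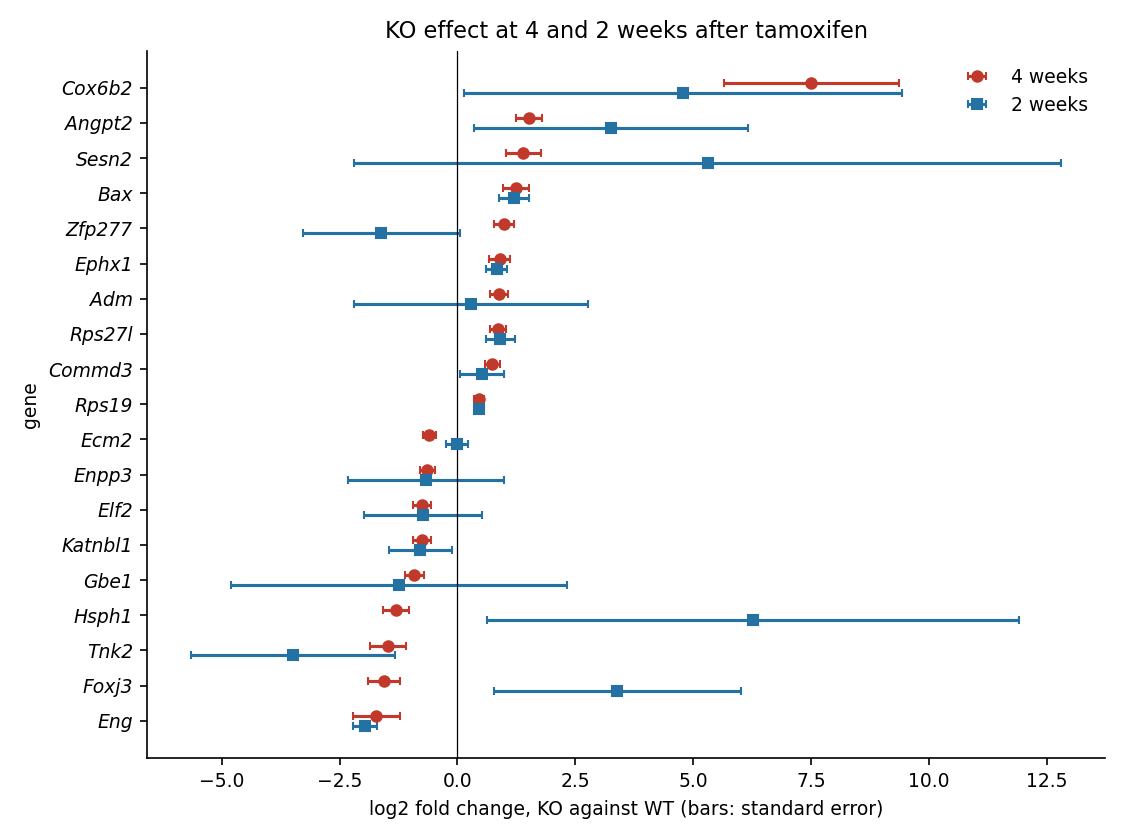
Log2 fold change (KO against WT) with its standard error at 4 weeks (red circles) and 2 weeks (blue squares) for Eng and the leading 4-week genes that were tested at both times. Bax, Rps27l, Ephx1 and Rps19 have nearly the same value at both times, while Cox6b2, Sesn2 and Hsph1 have wide bars at 2 weeks; the fitted value of Cox6b2 rests on WT counts near 0 and is not a bound.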

How the data were processed

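RNA of sorted bone marrow endothelial cells from individual mice was sequenced in 17 samples, of which the 9 collected at 4 weeks carry the main comparison. The authors deposited raw read counts per gene, 1 file per sample. Per the submitters' processing notes, cutadapt, STAR and HTSeq 0.6.1p1 with the GRCm38 (mm10) build were used. The annotation release and strand setting are not given in the sources used here. Counts of genes whose exons overlap another gene (beside those named in the results, Ephx1, Nrp1, Rps18, Rpl7a, Bnip3, Ankrd37, Tpi1, Aldoa, Dnaja1, Ephb4, Dll1, Jam3, Ctnna1, Cxcl10 and Alas2) are less certain. Summary lines that name no gene were left out.

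Genes were kept by edgeR's filterByExpr and scaled by TMM, and KO was compared with WT by edgeR's quasi-likelihood test (edgeR 4.0.16, R 4.3.3) with sex as a term and Benjamini-Hochberg adjustment at 0.05. DESeq2 1.42.0 and limma 3.58.1 (voom) were alternatives, beside other scalings and filters, males only and leaving out each sample. Scripts were tested on simulated data. CPM is the count scaled by the library total, and the floor for a count of 0 is 3 counts. Without molecular identifiers such floors cover counting error only, and p-values measure the spread between these samples. The text names the 12 genes of smallest p-value in each direction, genes of fixed lists by p-value, and others said to be chosen after their values were seen. Those 12 were taken among protein-coding genes with a mean count of at least 50 over the 9 samples. Members and lists were chosen with earlier results of these data known. Same-numbered males (m1, m2 and m3) correlated at 0.254, 0.071 and 0.379 in their deviations from the group means. Different-numbered males correlated at -0.375 to 0.1685, so m1 and m3 lay above every such value and m2 did not. The main fit did not treat the numbers as pairs, and whether they are pairs was not settled.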

Additional observations from a re-analysis of the deposited data

Results flagged for a closer look

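Single samples that stood far from the rest of their group, by the gap to the nearest sample over the whole range of the group (Dixon's criterion at the 95% level), were found in 10 of 133 combinations of a named gene and a group, where chance gives about 1 in 20. Among the genes that differed between genotypes these were Angpt2 in WT m2 (28.5 CPM, below the other WT samples), Cox6b2 in WT f (0.919 CPM, above), Gbe1 in WT m1 (40.7 CPM, above), Dll1 in WT f3 (76.2 CPM, below) and Rps18 in WT m3 (597 CPM, above). Among marker genes they were C1qb in WT f3 (9.20 CPM, above), Ptprc in WT m3 (2.57 CPM, above) and Col1a1 in KO m2 (8.33 CPM, below). Among genes near 0 they were Avpr2 in KO f2 (0.147 CPM) and Gm26280 in KO m3 (0.0379 CPM), where the other KO samples were at 0. They fell in 8 different samples, with at most 2 in any.

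The KO effect differed between the times for 2 of 61 named genes. The log2 difference, 4 weeks less 2 weeks, was -11.4 for the co-chaperone gene Dnajb4 (edgeR, Benjamini-Hochberg adjusted p = 0.0498) and 11.9 for the macrophage gene C1qb (adjusted p = 0.0404). At 2 weeks Dnajb4 was at a mean of 0.00658 CPM in WT and 19.7 CPM in KO, and C1qb at 12.7 CPM in WT and 0 CPM in KO, so both values rest on a group near 0 counts and are not bounds.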

How the results depend on the processing

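No gene passed an adjusted p of 0.05 in the edgeR comparison at 4 weeks under any of the alternatives that used edgeR, and DESeq2 gave 11 higher and 6 lower. The counts at an unadjusted p under 0.05, 198 higher and 224 lower, went to 312 and 380 with DESeq2, 35 and 18 with all 17 samples fitted together, 127 and 148 in males only, 377 and 426 without a low-count filter, and 394 and 517 within the positive side of the first component. They were 374 higher with limma voom and 346 lower with the side as a term. Leaving out each sample gave 142 to 410 higher and 147 to 366 lower, and the samples that moved a count by over 1.5 times were WT m3 (410 and 350), KO m1 (366 lower) and WT f (147 lower). The cause was not tested. For the Eng level in KO and WT at 4 weeks, the difference in mean log2 CPM was -2.60 (without KO m2) to -1.74 (without KO m3) and -2.29 in males only, where 3 against 3 samples cannot go below an exact permutation p of 0.1. The positive differences between the times were 6 with limma voom, and the positive and negative ones 0 and 0 with at least 10 counts in every sample. The replicate block, fitted in males only, gave 177 higher and 217 lower genes at an unadjusted p under 0.05, 0 past the adjusted threshold and -2.32 for Eng. The main fit did not take the numbers as pairs. The correlation of 0.071 for m2 lay within the range of different-numbered males (-0.375 to 0.1685), while those of m1 and m3 lay above it. The 24 leading genes kept their sign in all 526 values over 22 alternatives, with 485 of them within 1 SE. They were picked by p-value in the main fit, and every alternative reuses its samples or part of them. Their kept signs are thus no independent evidence. Of all 133 named genes 23 changed the sign of a value in at least 1 alternative. Of 32 lists (all genes counted as a list) 17 changed the sign of a median. The side of the first component, the fit with it as a term and the fits within each side were chosen after seeing the data. The marker lists of B cells and of blood cells in general had no median with at least 10 counts in every sample, nor had the latter with all 17 samples fitted together, since no member was tested there.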
